A study of Mus musculus with 12 samples.

Results

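The response of inflammatory macrophages to a DGAT1 inhibitor was read across all expressed genes. Members were the 6 libraries whose labels name macrophages stimulated with IFNγ and LPS, 3 without and 3 with T863, out of 12 libraries in the series. Bone marrow of C57BL/6 mice, cultured for 7 days in medium with CSF-1 (20 ng/ml), gave the macrophages of every group. Those of the group IFNγ + LPS received IFNγ (50 ng/ml) and LPS (20 ng/ml) for 18 h. The group IFNγ + LPS with DGAT1i received the same stimuli and T863 (50 μM) for 18 h. The other 6 libraries, 3 of resting (M0) macrophages and 3 of M0 with DGAT1i (50 μM, 18 h), entered the model and are set beside the result at the end. Descriptions of 2 of the 3 libraries of M0 with DGAT1i give another compound number, whereas their source names give T863, and they were read as T863. Labels name no vehicle, age or sex and do not say whether the 3 libraries of a group came from separate mice or cultures, so p-values measure the spread between these libraries, which may be technical.

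DGAT1 joins an acyl chain to diacylglycerol and thereby makes triglyceride, which is stored in lipid droplets under a coat of perilipins and related proteins. T863 is a small molecule that occupies the acyl-CoA site of the enzyme, and it acts on the protein rather than on its transcript. Macrophages activated by IFNγ and LPS switch on genes through interferon regulatory factors, NF-κB and AP-1, raise glycolysis and store triglyceride. The comparison asks which transcripts differ when that last step of triglyceride synthesis is inhibited during activation.

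The libraries held 5513081 to 6573202 reads on genes in IFNγ + LPS and 4996014 to 5693566 in IFNγ + LPS with DGAT1i. Values below are CPM, read counts scaled to library size with TMM factors, and 1 CPM was worth 4.28 to 5.55 reads in these 6 libraries. All 11 macrophage markers were present, with a summed level of 13619 to 14396 CPM without and 12824 to 14024 CPM with the inhibitor. Of them 4 fell, Adgre1 (2706 to 2114 CPM), Fcgr1 (857 to 709 CPM), Spi1 (389 to 321 CPM) and Itgam (130 to 85.4 CPM), and Cd68 rose (631 to 878 CPM). Nuclear RNAs Malat1 and Neat1 together took 1.98% to 2.14% of reads without and 2.4% to 2.53% with DGAT1i, and the 10 most abundant genes took 12.8% to 12.9% and 14.5% to 15.2%. Summed levels of dendritic cell markers were 15.2 to 21.6 CPM without and 6.59 to 9.81 CPM with DGAT1i, mostly from Clec9a (8.17 to 2.43 CPM) and Xcr1 (5.53 to 0.871 CPM). Of the 9 markers 3 were tested, of which 2 fell and 0 rose, and Ccr7 stood at 3.33 and 4.28 CPM. In M0 without the inhibitor Clec9a stood at 0.0484 CPM and Xcr1 at 0.0464 CPM. Summed levels of stromal and endothelial markers were 17.6 to 21.4 and 7.82 to 13.8 CPM, and those of B and plasma cell markers 10.1 to 13.5 and 6.3 to 6.59 CPM. Those of megakaryocyte and platelet markers, of which 1 of 6 was tested, were 63.2 to 66.1 and 72.5 to 82.7 CPM. Of these last 3 sums, the first came mostly from Kdr (14.4 to 7.93 CPM), the second from Cd22 (9.19 to 4.86 CPM) and the third from Pf4 (64 to 75 CPM, edgeR adjusted p = 0.0185). In M0 without the inhibitor Kdr stood at 1.52, Cd22 at 8.38 and Pf4 at 189 CPM. The call of Pf4 was lost if low counts were not filtered (adjusted p = 0.0974), with DESeq2 on 12 (0.0642) or 6 libraries (0.109), and without replicate 1 of IFNγ + LPS (0.0779) or replicate 3 with DGAT1i (0.126). The marker genes of this paragraph were named after their values were seen. Their part in the results was not tested. In bulk samples, fewer cells of a type and less RNA per cell cannot be told apart.

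Dgat1 mRNA, the transcript of the targeted enzyme (chromosome 15, 76502015 to 76511953, minus strand, GRCm38), was level between the groups. It stood at 17.3, 19.6 and 19.3 CPM in IFNγ + LPS and at 18.9, 16.3 and 20.8 CPM with DGAT1i, and the values overlapped. The log2 fold change was -0.01 ± 0.14 (SE; edgeR adjusted p = 0.957). A level of mRNA does not check an inhibitor that acts on the protein.

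Of 11760 genes tested, 3508 (29.8%) changed with DGAT1i (edgeR's quasi-likelihood test, adjusted p under 0.05), 1589 (13.5%) higher and 1919 (16.3%) lower. Counts of gene list members below are to be read beside these shares. The median log2 fold change was 0.48 for genes that rose, -0.37 for genes that fell and -0.01 for all genes tested. Over 2-fold, 433 genes (3.68%) changed, of which 253 (2.15%) were higher and 180 (1.53%) lower. For 4674 genes (39.7%) the values of one group all lay above those of the other. The plot of fold change against abundance shows that the changes reached up to the most abundant transcripts.

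**Figure D1:**
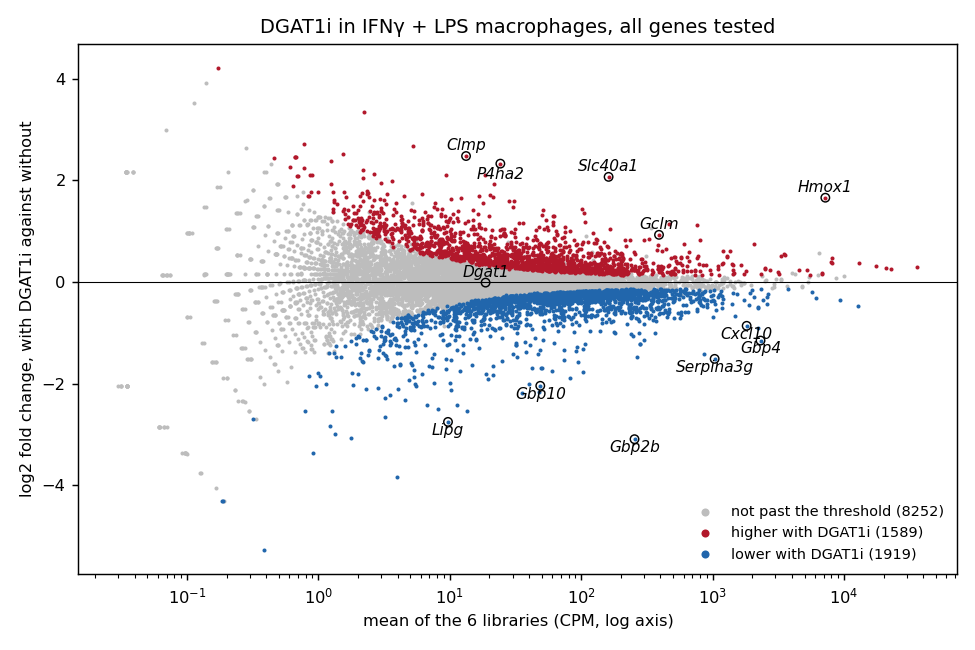
Log2 fold change by DGAT1i in IFNγ + LPS (vertical axis) against the mean of the 6 libraries (CPM, logarithmic horizontal axis) for each of 11760 genes. Red points are the 1589 genes that rose and blue points the 1919 that fell at an adjusted p under 0.05, grey points the rest. Hmox1 stands out among abundant transcripts at a log2 fold change of 1.66 and Gbp2b at -3.09, whereas Dgat1 lies at -0.01.

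The heme oxygenase gene Hmox1 and the transporter genes Slc40a1 and Slc48a1 were among the 10 genes of smallest p, all higher with DGAT1i. Hmox1 (chromosome 8, 75093621 to 75100589, plus strand), whose product opens the heme ring and frees its iron, was at 3306, 3354 and 3737 CPM in IFNγ + LPS. With DGAT1i it reached 10686, 10906 and 11207 CPM. All 3 values with the inhibitor lay far above the 3 without, a 3.15-fold rise (log2 1.66 ± 0.06 SE, edgeR adjusted p = 4.46e-31). Slc40a1 (chromosome 1, 45908068 to 45926523, minus strand) encodes ferroportin, the iron exporter of the cell membrane. Its level was 59.4, 61 and 65.4 CPM without and 265, 255 and 263 CPM with DGAT1i. The groups were far apart, at 4.21-fold (adjusted p = 2.63e-23). Slc48a1, whose product HRG1 carries heme out of the phagolysosome, went from 298, 272 and 305 CPM to 661, 644 and 623 CPM. This was a 2.2-fold increase without overlap (adjusted p = 1.26e-24). Blvrb, a biliverdin reductase that acts after heme oxygenase, did not pass at 403, 402 and 405 CPM without and 459, 420 and 417 CPM with DGAT1i (log2 0.10 ± 0.05 SE, adjusted p = 0.162). The ferritin chains that store iron rose. Named here after their values were seen, Fth1 went from a mean of 18966 to 23050 CPM (1.22-fold, adjusted p = 1.29e-05) and Ftl1 from 6770 to 9397 CPM (1.39-fold, adjusted p = 1.24e-10), with several near-identical copies, 1 of which covers 94% of the Ftl1 transcript.

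The list of NRF2 targets and glutathione metabolism holds 26 genes, among them Hmox1, Slc48a1, Blvrb and the ferritin chains. Of these 26, 18 (69.2%) rose, 2 (7.69%) fell and 6 did not pass, with a median log2 fold change of 0.42. Over all genes tested 13.5% rose and 16.3% fell. NRF2 is a transcription factor that raises genes of defence against oxidants and electrophiles. Gclm (chromosome 3, 122245557 to 122270732, plus strand), the modifier subunit of the enzyme of the rate-limiting step of glutathione synthesis, stood at 274, 257 and 277 CPM without and 545, 502 and 487 CPM with the inhibitor. The 2 sets of values did not overlap, and the rise was 1.9-fold (adjusted p = 6.82e-21). Gss, which completes glutathione, rose from 27.3 ± 4.08 to 49.5 ± 5.26 CPM (SD, n = 3), at 1.83-fold (edgeR adjusted p = 4.39e-09). It shares exon bases with Acss2 on the other strand, and without a known strand setting of the counting those reads cannot be told apart. Nqo1, a quinone reductase and common reporter of NRF2, was low at 4.92 and 8.07 CPM. Its call (1.64-fold, adjusted p = 0.016) was lost with DESeq2 on 12 libraries (adjusted p = 0.107) or 6 (0.121) and without replicate 2 of IFNγ + LPS or replicate 1 with DGAT1i, at log2 0.67 and 0.52. The count of 2 that fell went to 1 without replicate 2 of IFNγ + LPS.

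**Figure D2:**
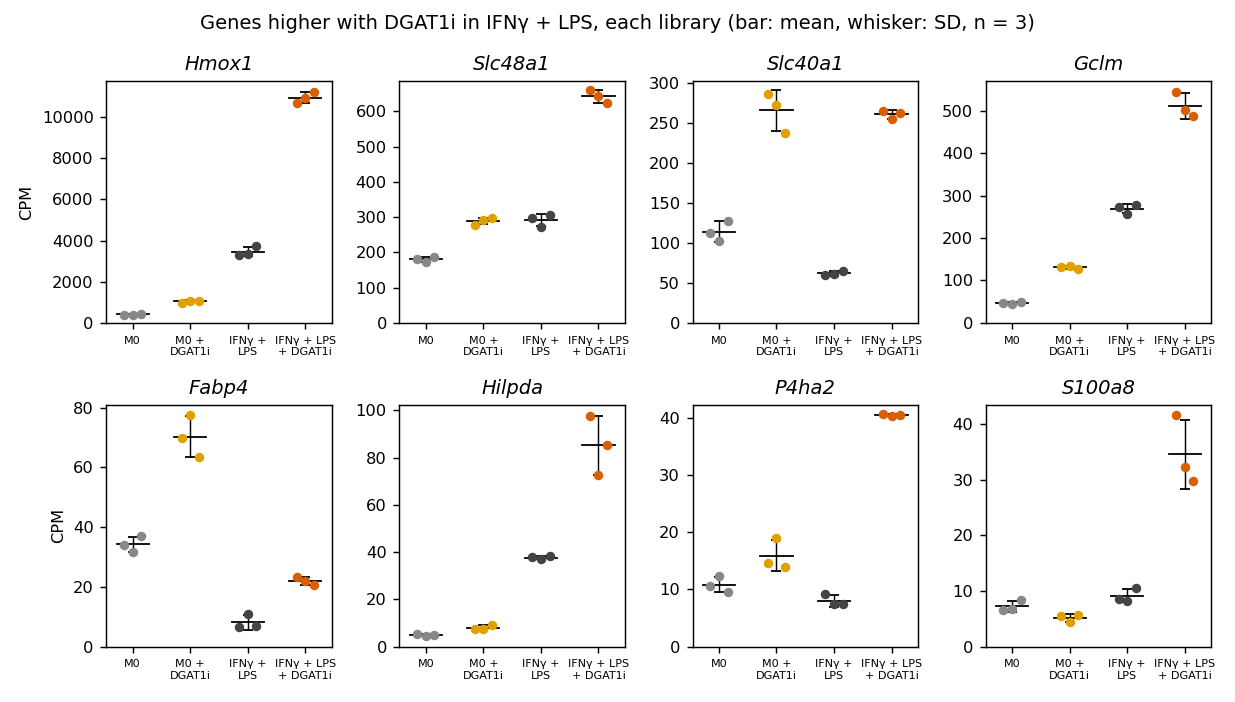
Level in CPM (vertical axes, from 0) of 8 genes that rose with DGAT1i in IFNγ + LPS, with 1 point per library, a bar at the mean and a whisker of 1 SD (n = 3), in M0, M0 with DGAT1i, IFNγ + LPS and IFNγ + LPS with DGAT1i. Hmox1 with DGAT1i lies at 10686 to 11207 CPM, above the 3306 to 3737 CPM of IFNγ + LPS alone, and in none of the 8 panels do these groups overlap.

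Largest changes are named among genes past the threshold whose 6 values did not overlap and whose mean reached 10 CPM in the higher group. The lack of overlap of these genes was thus set by the rule and adds no support. Those that rose had varied functions, and several were low in abundance. P4ha2 (chromosome 11, 54100095 to 54131665, plus strand), a subunit of the prolyl hydroxylase of collagen, was at 9.26, 7.38 and 7.49 CPM in IFNγ + LPS. With DGAT1i it was at 40.6, 40.3 and 40.4 CPM. The groups were distinct, and the rise was 5.04-fold (adjusted p = 4.66e-20). Clmp, an adhesion protein of the CAR family, rose 5.57-fold from a mean of 4.06 to 22.5 CPM, and Nlgn2, a neuroligin, 4.28-fold from 6.93 to 29.8 CPM. Selenbp1 rose 4.29-fold from 3.53 to 15.2 CPM, and its whole transcript has a near-identical copy in Selenbp2, so the share of each is uncertain. The class Ib gene H2-M2 (3.3-fold), Maged1 (3.2-fold), Ckap4 (3.15-fold) and the transporter Abca8b (3.1-fold) each had a mean under 33 CPM with DGAT1i.

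S100a8 and S100a9, the subunits of the calcium-binding protein calprotectin, were among the 12 largest increases by that rule. S100a8 stood at 8.63, 8.28 and 10.5 CPM without and at 41.6, 32.3 and 29.7 CPM with DGAT1i (3.79-fold, adjusted p = 9.2e-16). S100a9 stood at 5.26, 7.02 and 11.1 CPM without and at 25.9, 18.6 and 32.9 CPM with DGAT1i (3.26-fold, adjusted p = 1.7e-06). Neither pair overlapped. Both genes are abundant in neutrophils, and of the 19 neutrophil and granulocyte precursor markers 9 were tested, of which 4 rose and 2 fell. Named after their values were seen, the granule genes Ngp (0.211, 1.98 and 1.87 CPM without, 8.44, 8.14 and 11 CPM with DGAT1i, edgeR adjusted p = 1.45e-08) and Ltf (means of 0.932 and 4.33 CPM, adjusted p = 0.000106) also rose. Csf3r, the receptor of G-CSF, was lower at 188 to 140 CPM (adjusted p = 5.09e-07). Lcn2 was lower at 38.9 to 30.8 CPM (adjusted p = 0.0118), a call that was lost with DESeq2 on 12 libraries (adjusted p = 0.101) or 6 (0.128) and without replicate 2 of IFNγ + LPS (log2 -0.28) or replicate 1 with DGAT1i (-0.24). The summed level of all 19, most of it from Csf3r, was 248 to 275 CPM without and 248 to 266 CPM with DGAT1i, and its part in the rise was not tested. The markers Elane, Ctsg, Ly6g and Retnlg had 0 reads in all 6 libraries, which allows a level of up to 0.192 CPM in IFNγ + LPS and 0.215 CPM with DGAT1i (3 reads over 3 libraries, counting error only).

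Guanylate-binding proteins fell together. These interferon-induced GTPases coat vacuoles of bacteria and parasites and open them to the cytosol. Gbp2b (chromosome 3, 142594847 to 142619179, plus strand), also known as Gbp1, was at 463, 455 and 449 CPM in IFNγ + LPS. It was at 63.4, 47.4 and 49.7 CPM with DGAT1i. The groups were widely apart, and the gene was 8.49-fold lower (log2 -3.09 ± 0.07 SE, edgeR adjusted p = 4.46e-31). Gbp4 (chromosome 5, 105115767 to 105139586, minus strand) went from 3054, 3224 and 3289 CPM to 1365, 1476 and 1470 CPM. This was 2.22-fold lower without overlap (adjusted p = 3.26e-24). Gbp10 (4.12-fold lower, from 78.4 ± 4.2 to 19.1 ± 0.914 CPM, SD, n = 3), Gbp11 (4.01-fold lower) and Gbp8 (2.5-fold lower) fell as well by edgeR's test. Gbp10 is near-identical to Gbp6 over 97.8% of its transcript, and part of Gbp11 to Gbp8, so the split between such pairs is uncertain. Gbp2 and Gbp7, named after their values were seen, fell less, by 1.28-fold and 1.34-fold, from 10516 to 8248 CPM and from 911 to 682 CPM.

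All 11 tested Gbp genes fell, with log2 fold changes from -3.09 to -0.29. Of the whole list of 19 interferon-inducible GTPases 14 (73.7%) fell, against 16.3% over all genes tested, 1 rose and 4 did not pass, with a median log2 fold change of -0.42. Of the 8 members that are no Gbp genes 3 fell, named after their values were seen. Tgtp1 was 1.53-fold lower (507 to 331 CPM, edgeR adjusted p = 1.19e-13). Over 99.6% of its transcript it is near-identical to Tgtp2, which did not pass (log2 -0.03), so the split between them is uncertain. Irgm2 fell by 0.21 on the log2 scale (754 to 651 CPM, edgeR adjusted p = 0.00146). Gvin1, with full copies in other gene models, fell by 0.28 (90.4 to 74.7 CPM, adjusted p = 0.00972), a call lost with DESeq2 on 12 (adjusted p = 0.0678) or 6 libraries (0.0824) and without replicate 2 of either group. Among the immunity-related GTPases, which act on the same vacuoles, Igtp and Irgm1 did not pass. Igtp was at 1159, 1248 and 1213 CPM without and 1209, 1248 and 1271 CPM with DGAT1i (log2 0.04 ± 0.05 SE, edgeR adjusted p = 0.596). Irgm1 was at 1350, 1424 and 1368 CPM without and 1329, 1362 and 1346 CPM with DGAT1i (log2 -0.04 ± 0.05 SE, adjusted p = 0.614), and the values of both genes overlapped between the groups. Iigp1, named after its values were seen, was the member that rose (1.11-fold, adjusted p = 0.0212), a call that was lost if low counts were not filtered (adjusted p = 0.19) and without replicate 1 of either group, at log2 0.12 without that of IFNγ + LPS and 0.11 without that with DGAT1i.

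Promoters of these genes are shown because members that share a regulatory motif differed in their response. The letters of the interferon-stimulated response element (ISRE), GAAA, any 2 bases and GAAA again on either strand, stood in RefSeq promoter windows (GRCm38.p6, 250 bases before to 50 after the start) of 3.38% of the 8938 tested genes that have one. They stood in 6.5% of windows of genes that fell, 2.86% of those that rose and 14.9% (20 of 134) of those that fell over 2-fold. Some of these 20 are related genes, such as Pilrb1 and its copy Pilrb2, or Ifit1bl1 and Ifit3b, so they are not all independent windows. Of the 11 GTPases of the list with a window, 10 hold the letters, 7 of them lower with DGAT1i and 3 not past the threshold. The 250 bases before the start are printed 5′ to 3′ for 3 genes of the family and 2 other interferon-induced genes, with the ISRE letters in capitals. Gbp2b fell deeply, Gbp7 fell slightly and Igtp did not pass, whereas Cxcl10 and Ifit1bl1 fell. Windows lie at chr3:142594597-142594846 (plus strand) for Gbp2b, chr3:142530086-142530335 (plus) for Gbp7, chr11:58199306-58199555 (plus) for Igtp, chr5:92348890-92349139 (minus) for Cxcl10 and chr19:34601969-34602218 (minus) for Ifit1bl1.
Gbp2b: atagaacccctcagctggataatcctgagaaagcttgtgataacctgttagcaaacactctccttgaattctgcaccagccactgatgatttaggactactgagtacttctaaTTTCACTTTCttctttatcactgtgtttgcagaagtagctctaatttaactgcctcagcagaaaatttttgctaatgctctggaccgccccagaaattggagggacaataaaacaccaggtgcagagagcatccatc
Gbp7: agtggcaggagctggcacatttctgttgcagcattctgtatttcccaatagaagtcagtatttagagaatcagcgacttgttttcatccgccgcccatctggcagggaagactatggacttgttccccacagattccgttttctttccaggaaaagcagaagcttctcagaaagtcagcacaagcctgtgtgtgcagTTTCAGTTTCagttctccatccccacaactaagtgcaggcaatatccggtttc
Igtp: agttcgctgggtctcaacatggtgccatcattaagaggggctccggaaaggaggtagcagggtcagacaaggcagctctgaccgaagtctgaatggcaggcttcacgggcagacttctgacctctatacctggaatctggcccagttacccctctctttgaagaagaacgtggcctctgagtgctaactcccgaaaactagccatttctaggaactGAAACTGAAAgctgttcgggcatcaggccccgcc
Cxcl10: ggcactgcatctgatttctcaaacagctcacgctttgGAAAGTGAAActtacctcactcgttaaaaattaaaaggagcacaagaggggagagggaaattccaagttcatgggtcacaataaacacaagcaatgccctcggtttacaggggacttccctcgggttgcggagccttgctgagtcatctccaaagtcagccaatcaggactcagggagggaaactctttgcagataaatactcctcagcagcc
Ifit1bl1: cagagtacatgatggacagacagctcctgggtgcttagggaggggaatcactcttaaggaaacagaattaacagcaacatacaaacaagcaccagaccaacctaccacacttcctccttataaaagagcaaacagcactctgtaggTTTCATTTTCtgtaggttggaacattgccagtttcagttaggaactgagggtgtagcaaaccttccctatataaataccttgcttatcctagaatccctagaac
The capitals begin 137 bases before the start in Gbp2b, 53 in Gbp7, 34 in Igtp, 213 in Cxcl10 and 104 in Ifit1bl1. For the other motifs, shares are given for all windows, those of genes that rose, those of genes that fell and those of genes that fell over 2-fold. Letters of the STAT element GAS (TTCNNNGAA) stood in 6.91%, 5.65%, 8.07% and 14.2%. Those of AP-1 (TGANTCA) stood in 4.86%, 4.99%, 6.76% and 10.4%, and those of the κB site in 9.91%, 11.2%, 11.1% and 6.72%. Letters of the antioxidant response element (TGACNNNGC) stood in 15.2%, 16.1%, 16% and 18.7%, and in 15.1% of windows of genes that rose over 2-fold. Those of the cell cycle element CHR (TTTGAA) stood in 12.1%, 9.25%, 13.5% and 19.4%. A match is a description of the sequence and no evidence of binding.

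Antiviral genes that type I interferon induces fell on balance. Of 35 in the list 22 (62.9%) fell, 2 rose and 11 did not pass, with a median log2 fold change of -0.31. The count that rose was 1 without replicate 1 or 3 of IFNγ + LPS or replicate 2 or 3 with DGAT1i. Ifit1bl1, of the family that binds foreign RNA ends, fell from 138, 197 and 142 CPM to 39.9, 55.3 and 45.3 CPM. The groups did not overlap, at 3.41-fold lower (adjusted p = 0.000194). Ifit3b was 2.34-fold lower (56.9 to 24.2 CPM), with 84.9% of its transcript shared with Ifit3. The dynamin-like GTPase Mx2 was 1.72-fold lower, the ISG15 protease Usp18 1.62-fold lower at 698 to 431 CPM, and the exonuclease Isg20 1.55-fold lower. Outside the list, the serpins Serpina3g (1532 ± 58.5 to 538 ± 47 CPM) and Serpina3f (388 ± 10.6 to 140 ± 9.9 CPM, SD, n = 3) had 2 of the 10 smallest p values, at 2.84-fold and 2.76-fold lower (edgeR adjusted p = 3.7e-27 and 2.82e-26). They share 23.5% of the Serpina3f transcript at near identity.

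Of 22 genes of the interferon signal itself 8 (36.4%, against 16.3% over all genes tested) fell, 1 rose and 13 did not pass, with a median of -0.07 on the log2 scale. Irf9, the DNA-binding subunit of ISGF3, was 1.45-fold lower, from 110, 108 and 103 CPM to 67.5, 82.8 and 71.2 CPM (adjusted p = 2.8e-08). Tyk2 (1.33-fold) and Stat3 (1.31-fold) were lower, and the receptor chain Ifnar2 rose 1.21-fold. A count of 2 rose without replicate 1 or 2 with DGAT1i. Irf1, a factor induced directly by IFNγ, was at 1981, 1983 and 1995 CPM without and 1869, 1932 and 1973 CPM with DGAT1i. The log2 fold change of -0.05 ± 0.05 (SE) did not pass (edgeR adjusted p = 0.542).

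Of the 19 genes of the list of MHC class I and immunoproteasome 14 (73.7%) fell, 2 rose and 3 did not pass, with a median of -0.24, and the count that rose was 1 without replicate 1 or 3 of IFNγ + LPS or replicate 2 or 3 with DGAT1i. Psmb10, a catalytic subunit of the immunoproteasome, went from 384, 383 and 372 CPM to 270, 241 and 241 CPM. It was 1.51-fold lower without overlap (adjusted p = 3.5e-13). The classical class I chains, which carry peptides to the surface, did not pass. H2-K1 was at 3710, 3851 and 3767 CPM without and 3629, 3531 and 3591 CPM with DGAT1i (log2 -0.08 ± 0.05 SE, edgeR adjusted p = 0.285). H2-D1 was at 5195, 5239 and 5220 CPM without and 5561, 5564 and 5653 CPM with it (log2 0.10 ± 0.05 SE, adjusted p = 0.126), and it passed as higher with edgeR on the 6 libraries (adjusted p = 0.0453) and with DESeq2 on 12 (0.03) or 6 (0.0209). The class Ib genes H2-Q6 (1.68-fold), H2-M3 (1.61-fold), H2-Q4 (1.49-fold) and H2-Q7 (1.33-fold) were lower, with near-identical stretches between the H2-Q genes. Of 11 tested class II genes 5 (45.5%) fell, against 16.3% over all genes tested, and 6 did not pass. The count that fell was 3 without replicate 3 of IFNγ + LPS or replicate 2 with DGAT1i. The thiol reductase Ifi30 (1.44-fold lower) and the protease Lgmn (1.29-fold lower, 803 to 621 CPM), which prepare antigen in the lysosome, were among the 5.

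**Figure D3:**
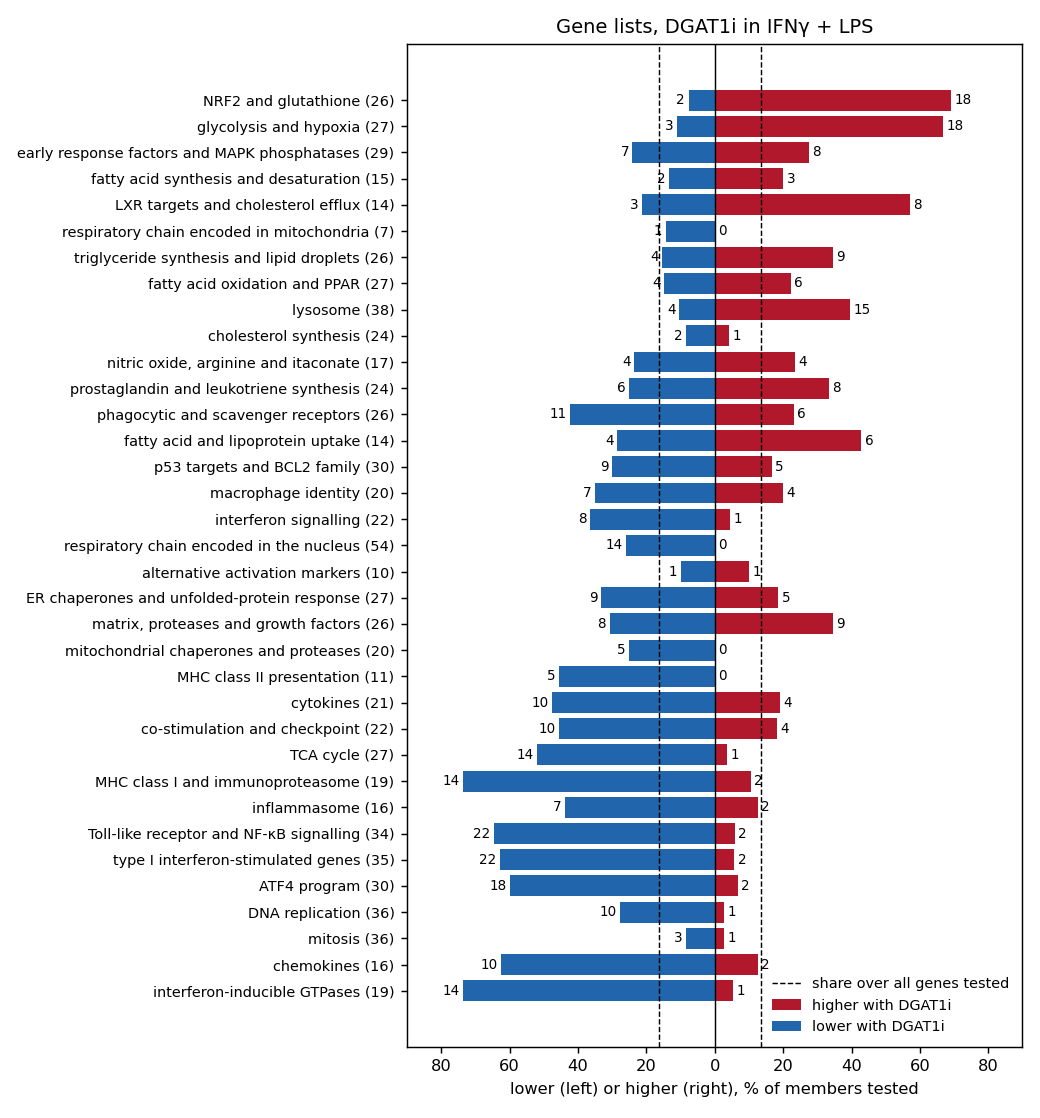
Share of the tested members of each of 35 gene lists (number tested in brackets) that were lower (blue, to the left) or higher (red, to the right) with DGAT1i in IFNγ + LPS, as a percentage of members tested (horizontal axis), with the count beside each bar. Dashed lines mark the shares over all genes tested, 16.3% lower and 13.5% higher. Lists are ordered by median log2 fold change, from the interferon-inducible GTPases (14 of 19 lower) to NRF2 and glutathione (18 of 26 higher).

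Of 34 genes of Toll-like receptor and NF-κB signalling 22 (64.7%) fell, 2 rose and 10 did not pass, with a median log2 fold change of -0.29, and 1 rose without replicate 3 of IFNγ + LPS or replicate 2 with DGAT1i. Ikbke (chromosome 1, 131254343 to 131279606, minus strand) encodes the kinase IKKε. It went from 393, 390 and 395 CPM to 165, 164 and 179 CPM. The groups were apart, at 2.32-fold lower (adjusted p = 1.21e-25). Nfkbiz, the nuclear cofactor IκBζ, was 1.76-fold lower at 49.1 to 27.8 CPM, and the subunit genes Nfkb1 (283 to 185 CPM) and Nfkb2 (278 to 185 CPM) 1.53-fold and 1.5-fold lower. Nfkbid was 1.49-fold lower. Of the members that did not pass, the receptor Tlr13 had means of 261 and 278 CPM (adjusted p = 0.188) and Tlr9 of 125 and 111 CPM (adjusted p = 0.285), the latter at 0.0261 without the filter on low counts and 0.00113 without replicate 2 with DGAT1i. Outside the list, Lacc1, which encodes an enzyme of macrophages, had one of the 10 smallest p values and was 2.19-fold lower, from 397, 428 and 407 CPM to 178, 200 and 185 CPM (adjusted p = 9.32e-24).

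Cytokines and chemokines fell more often than they rose. Of 21 cytokine genes tested 10 (47.6%) fell and 4 rose (2 without replicate 1 or 2 of IFNγ + LPS, 1 with DESeq2 on 12 libraries and 2 on 6), with a median of -0.16 on the log2 scale. Il1a, Il1b and Il6 were 3.34-fold, 3.21-fold and 2.19-fold lower, at means of 27.5, 23.9 and 6.77 CPM with DGAT1i. Tnfsf15, a ligand of the TNF family, was 2.52-fold lower at 16.3 to 6.42 CPM. Csf1, the growth factor of macrophages, which the medium also holds as protein, went from 40, 44.8 and 36.2 CPM to 18.9, 20 and 25.9 CPM. It was 1.88-fold lower without overlap (adjusted p = 2.19e-08).

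Of 16 chemokine genes 10 (62.5%) fell and 2 rose, with a median of -0.42. The CXCR3 ligand Cxcl10 (chromosome 5, 92346638 to 92348889, minus strand) went from 2289, 2395 and 2342 CPM to 1280, 1272 and 1308 CPM. Its values without DGAT1i were all above those with it, at 1.82-fold lower (adjusted p = 3.72e-20). Cxcl11 went from 176, 185 and 185 CPM to 88.7, 94.5 and 98.8 CPM. It was 1.94-fold lower (adjusted p = 7.41e-17), and 1582 bases of its exons are shared with Gm2673 on the other strand. Ccl3 and Ccl4, the ligands MIP-1α and MIP-1β, were 3.16-fold and 2.16-fold lower at means of 10.2 and 9.03 CPM. Fpr1, no member of the list, is the receptor of formylated peptides that guides cells along bacterial products. It went from 86.1, 82.3 and 67.6 CPM to 18.7, 21.9 and 11.4 CPM. This was 4.47-fold lower (adjusted p = 9.63e-13).

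Of 16 inflammasome genes 7 (43.8%) fell, 2 rose and 7 did not pass, with a median of -0.26. The sensors Nlrp3 (135, 127 and 114 CPM without, 92.6, 83.9 and 81.7 CPM with DGAT1i) and Aim2 (87.4 to 70.5 CPM on average) were 1.45-fold and 1.24-fold lower. Pycard, the adaptor ASC that links sensors to caspase-1, rose from 38.3, 35.3 and 33 CPM to 65, 59 and 54.4 CPM. This was a 1.68-fold increase without overlap (adjusted p = 2.03e-09).

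**Figure D4:**
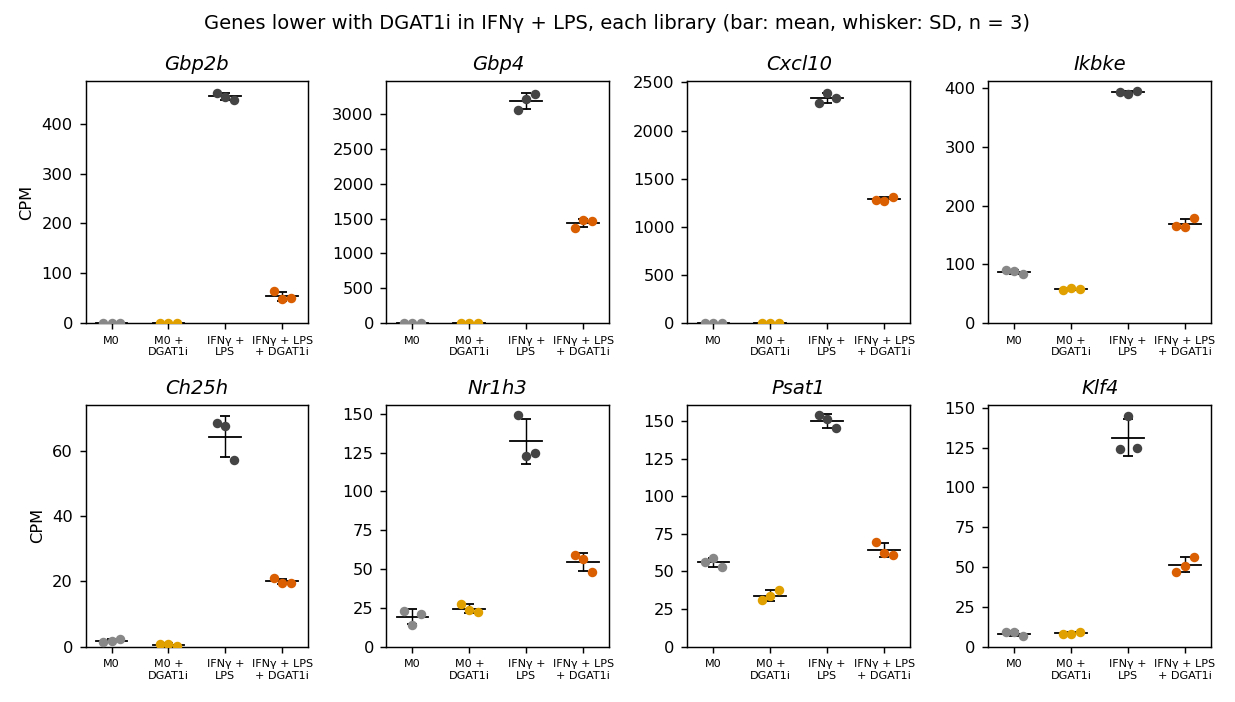
Level in CPM (vertical axes, from 0) of 8 genes that fell with DGAT1i in IFNγ + LPS, with 1 point per library, a bar at the mean and a whisker of 1 SD (n = 3), in the 4 groups. Gbp2b lies at 449 to 463 CPM in IFNγ + LPS and at 47.4 to 63.4 CPM with DGAT1i, and the 2 groups are apart in each of the 8 panels.

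Early response factors went both ways. Of 29 such genes 8 (27.6%) rose and 7 (24.1%) fell, against 13.5% higher and 16.3% lower over all genes tested. Klf4 (chromosome 4, 55527143 to 55532466, minus strand), a Krüppel-like factor of the monocyte lineage, went from 124, 145 and 125 CPM to 46.9, 50.7 and 56.3 CPM. It was 2.57-fold lower without overlap (adjusted p = 4.01e-20). Batf, an AP-1 partner, was 2.21-fold lower at 21.9 to 9.86 CPM. The AP-1 subunit Fosl2 was 1.9-fold higher (17.4 to 33.3 CPM), Dusp4, a phosphatase of MAP kinases, 1.89-fold higher (5.59 to 10.4 CPM), and Ier3 1.79-fold higher (32.3 to 57.8 CPM).

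Of 26 tested genes of triglyceride synthesis and lipid droplets 9 (34.6%) rose, 4 fell and 13 did not pass, with a median of 0.11 on the log2 scale, and 5 rose without replicate 1 of IFNγ + LPS. Hilpda (chromosome 6, 29272488 to 29275446, plus strand) encodes a droplet protein that inhibits the lipase ATGL. Its level was 37.9, 36.9 and 38.2 CPM without and 97.6, 72.6 and 85.5 CPM with DGAT1i. The groups did not overlap, at 2.26-fold higher (adjusted p = 2.37e-15). Mgll, which frees the last acyl chain of a glyceride, was 1.61-fold higher (10.5 to 16.9 CPM), Agpat5, an acyltransferase, 1.41-fold higher (30.3 to 42.4 CPM) and Lipe, hormone-sensitive lipase, 1.41-fold lower (50.8 to 36.1 CPM). Gpat3, which opens the pathway by acylating glycerol 3-phosphate, was low at 4.31 and 6.91 CPM. Its call (1.6-fold, adjusted p = 0.0344) was lost if low counts were not filtered (adjusted p = 0.0924) and with DESeq2 on 12 libraries (0.173) or 6 (0.188). It was also lost without replicate 1 (log2 0.56) or 3 (0.64) of IFNγ + LPS or replicate 1 (0.69) or 2 (0.51) with DGAT1i.

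Of 14 tested genes of fatty acid and lipoprotein uptake 6 (42.9%) rose, 4 (28.6%) fell and 4 did not pass, with a median of -0.04 on the log2 scale. Over all genes tested 13.5% rose and 16.3% fell. The members that rose include 3 fatty acid-binding proteins, which carry acyl chains inside the cell. Fabp4 (chromosome 3, 10204088 to 10208576, minus strand) went from 6.53, 11 and 6.93 CPM to 23.3, 21.9 and 20.5 CPM. This was a 2.66-fold rise without overlap (adjusted p = 2.66e-10). Fabp5 went from 213, 217 and 217 CPM to 403, 364 and 376 CPM, at 1.76-fold (adjusted p = 1.33e-05), and Fabp3 rose 1.93-fold from 8.14 to 15.7 CPM. Lipg, endothelial lipase, fell from 10.5, 21.1 and 18.9 CPM to 1.03, 2.92 and 3.74 CPM without overlap (6.72-fold lower, adjusted p = 5.57e-05).

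Of 27 genes of fatty acid oxidation and PPAR signalling 6 (22.2%) rose, 4 (14.8%) fell and 17 did not pass, against 13.5% higher and 16.3% lower over all genes tested (3 higher and 2 lower with DESeq2 on the 6 libraries). The dehydrogenase Acadl rose 1.55-fold from 64.1 ± 2.67 to 99.3 ± 5.44 CPM (SD, n = 3; edgeR adjusted p = 1.11e-09), and the nuclear receptor Ppard 1.61-fold from 15.1 to 24.6 CPM. The receptor Pparg, which drives lipid storage and the alternative state, was 1.72-fold lower at 9.7 to 5.72 CPM (adjusted p = 0.0865 with DESeq2 on the 6 libraries), and the coactivator Ppargc1b 1.65-fold lower at 25.3 to 15.4 CPM. In fatty acid synthesis 3 of 15 (20%) rose and 2 (13.3%) fell, beside the same 13.5% and 16.3%. The desaturase Scd2 went from 33.5, 35.5 and 36.7 CPM to 89.5, 79.1 and 94.6 CPM. This was 2.48-fold higher without overlap (adjusted p = 6.77e-16). The citrate carrier Slc25a1 was 1.31-fold higher, whereas Acly, which cleaves that citrate in the cytosol, was 1.24-fold lower and the elongase Elovl1 1.3-fold lower.

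Of 24 genes of cholesterol synthesis, the SREBP2 program, 21 did not pass, 2 (8.33%) fell and 1 (4.17%) rose, against 16.3% lower and 13.5% higher over all genes tested, with a median of 0.02 on the log2 scale. The 1 gene that rose, Sqle, was low at 3.07 and 5.51 CPM and lost its call with DESeq2 on the 6 libraries (adjusted p = 0.146) and without replicate 2 (log2 0.70) or 3 (0.73) of IFNγ + LPS or replicate 1 with DGAT1i (0.72). Insig1, the anchor that holds SREBP in the ER, was 1.36-fold lower, and 1 rather than 2 genes fell without replicate 2 of IFNγ + LPS or replicate 2 or 3 with DGAT1i.

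Of 14 tested LXR genes 8 (57.1%) rose and 3 fell. Arl4c (1.5-fold), the partner receptor Rxra (1.46-fold) and the lipid transfer protein Pltp (1.41-fold) were higher. Nr1h2, the gene of the receptor LXRβ, did not pass, nor did the target Apoe. The other receptor, LXRα, was lower. Its gene Nr1h3 (chromosome 2, 91184061 to 91202834, minus strand) went from 149, 123 and 125 CPM to 58.9, 56.1 and 47.9 CPM. The values did not overlap, at 2.42-fold lower (adjusted p = 1.06e-06). Ch25h (chromosome 19, 34473778 to 34475164, minus strand), which makes 25-hydroxycholesterol and is itself induced by interferon, went from 68.4, 67.5 and 57.1 CPM to 21, 19.4 and 19.6 CPM. This was 3.21-fold lower (adjusted p = 3.42e-18).

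Of 24 genes of prostaglandin and leukotriene synthesis 8 (33.3%) rose, 6 (25%) fell and 10 did not pass, with a median of -0.03. Over all genes tested 13.5% rose and 16.3% fell. Alox5ap, the protein FLAP that presents arachidonic acid to 5-lipoxygenase, went from 83, 88.2 and 80.2 CPM to 175, 153 and 161 CPM. It was 1.94-fold higher without overlap (adjusted p = 2.9e-18). Of the microsomal glutathione transferases, Mgst1 rose 2.06-fold (108 to 224 CPM) and Mgst3 2.1-fold (5.11 to 10.9 CPM). The prostacyclin receptor Ptgir rose 1.85-fold (14.4 to 26.6 CPM) and the epoxide hydrolase Ephx1 2.17-fold (3.94 to 8.58 CPM). Of those that fell, 2 are named after their values were seen. Ptgs2, the inducible cyclooxygenase, went from 1931, 1665 and 1802 CPM to 1213, 1055 and 1145 CPM (1.58-fold lower, adjusted p = 4.34e-13), and the transporter Slco3a1 from a mean of 552 to 342 CPM (1.62-fold lower, adjusted p = 1.54e-15).

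Of 27 genes of a list that joins glucose uptake, glycolytic enzymes and targets of the hypoxia factor HIF 18 (66.7%) rose, against 13.5% of all genes tested, and 3 fell, with a median of 0.28. Slc16a3, the lactate exporter MCT4, went from 289, 278 and 292 CPM to 440, 492 and 495 CPM. It was 1.66-fold higher without overlap (adjusted p = 3.9e-16). Bnip3, which marks mitochondria for removal in hypoxia, rose 1.63-fold (120 to 195 CPM), Ndrg1 1.61-fold (27.7 to 44.5 CPM), the carrier Slc16a1 1.56-fold (18.1 to 27.9 CPM) and the hydroxylase Egln3 2.19-fold (2.82 to 6.27 CPM). The abundant glycolytic enzymes Pkm (means of 3220 and 3362 CPM, adjusted p = 0.403) and Hk3 (2479 and 2521 CPM, adjusted p = 0.772) did not pass. The log2 fold change of Hk3, 0.02, was -0.01 without the filter on low counts. Bnip3 has several near-identical copies, 1 of which covers 94.2% of its transcript.

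Of 27 TCA cycle genes 14 (51.9%) fell, 1 rose and 12 did not pass, with a median of -0.22, and 2 rose without replicate 3 with DGAT1i and 9 fell with DESeq2 on the 6 libraries. Idh3a, a subunit of the NAD-dependent isocitrate dehydrogenase, went from 30.1, 26.6 and 32.6 CPM to 21.8, 16.3 and 17 CPM. It was 1.61-fold lower without overlap (adjusted p = 8.44e-06), and its partner Idh3b was 1.31-fold lower. Idh1, the NADP-dependent enzyme of the cytosol, was the gene that rose, from 35.4, 39.4 and 44.8 CPM to 65.3, 62.6 and 69.3 CPM (1.64-fold, adjusted p = 6.25e-09).

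In the respiratory chain 14 of 54 nuclear genes (25.9%) fell, against 16.3% over all genes tested, and 0 rose by edgeR's test, with 1 higher without replicate 2 with DGAT1i. Atp5b, the catalytic subunit of ATP synthase, went from 1098, 1032 and 1033 CPM to 798, 714 and 745 CPM. It was 1.4-fold lower without overlap (adjusted p = 2.69e-11). Ndufs8 of complex I was 1.52-fold lower and cytochrome c, Cycs, 1.33-fold lower. Of the mitochondrial genes 7 were tested, and mt-Cytb was the 1 (14.3%) that fell (1.27-fold, 488 to 384 CPM, adjusted p = 0.000251). The number that rose was 0, or 2 if replicate 2 of IFNγ + LPS was left out and 1 if replicate 2 or 3 with DGAT1i was. Reads on mitochondrial mRNAs made up 0.601% to 0.676% of all reads without and 0.655% to 0.693% with DGAT1i. Of 20 mitochondrial chaperones and proteases 5 (25%) fell, among them Tomm40, the import pore (1.43-fold lower), and the prohibitin Phb2 (1.33-fold lower).

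Genes of the ATF4 program, which supplies amino acids and charges tRNAs under stress, fell more often than they rose. Of 30 genes 18 (60%) fell, against 16.3% over all genes tested, 2 rose and 10 did not pass, with a median log2 fold change of -0.32. The count that rose was 1 without replicate 3 of IFNγ + LPS or replicate 1 with DGAT1i. Psat1 (chromosome 19, 15904678 to 15947337, minus strand), an enzyme of serine synthesis, went from 154, 151 and 145 CPM to 69.4, 62.2 and 61.2 CPM. It was 2.33-fold lower without overlap (adjusted p = 2.3e-20). Asns, asparagine synthetase, was 1.85-fold lower (66.5 to 35.8 CPM) and the tRNA synthetase Yars 1.61-fold lower (40.3 to 24.9 CPM). The leucine carrier Slc7a5 was 3.51-fold lower at 9.68 to 2.69 CPM.

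Of 27 ER chaperone and unfolded-protein response genes 9 (33.3%) fell and 5 (18.5%) rose, against 16.3% and 13.5% over all genes tested. Without replicate 1 of IFNγ + LPS 5 fell and 3 rose, without replicate 3 with DGAT1i 5 fell, and without replicate 2 of IFNγ + LPS 1 rose. With DESeq2 5 fell and 3 rose on 12 libraries, and 2 fell and 1 rose on 6. Selenos, a selenoprotein of ER-associated degradation, was the deepest of these at 1.71-fold lower (43.4 to 25.3 CPM, adjusted p = 1.16e-07).

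Nitric oxide and arginine genes split, with 4 of 17 (23.5%) higher and 4 (23.5%) lower, against 13.5% and 16.3% over all genes tested. Slc7a1, the arginine carrier CAT1, went from 59.8, 62.6 and 60.5 CPM to 29.4, 29.4 and 26.2 CPM. It was 2.15-fold lower without overlap (adjusted p = 6.87e-14). Ass1, which rebuilds arginine from citrulline, was 1.64-fold higher (165 to 271 CPM), with a near-identical copy over 73.1% of its transcript. Ncf1, a subunit of the NADPH oxidase, was 1.38-fold lower. The count of 4 that fell was 7 without replicate 1 with DGAT1i.

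Phagocytic and scavenger receptors went in both directions. Of 26 tested 11 (42.3%) fell and 6 rose. Marco, a scavenger receptor for bacteria, varied widely, at 142, 78.5 and 167 CPM without and 50.8, 19.2 and 33.9 CPM with DGAT1i. These values did not overlap (3.71-fold lower, adjusted p = 0.00439), and with edgeR on the 6 libraries alone the adjusted p was 0.0548. Stab1, a receptor for modified lipoproteins, was 1.62-fold lower (452 to 280 CPM) and the inhibitory lectin Clec12a 1.56-fold lower (410 to 263 CPM). Clec4n, the fungal receptor Dectin-2, was 2.13-fold higher (48.5 to 103 CPM). Trem2, a receptor for lipids and apoptotic cells, went from 119, 123 and 124 CPM to 211, 191 and 187 CPM, at 1.61-fold higher without overlap (adjusted p = 4.08e-14).

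Lysosomal genes rose more often than they fell, with 15 of 38 (39.5%) higher and 4 lower (2 without replicate 2 or 3 with DGAT1i). Tfec, a factor of the TFEB family, was 2.08-fold higher at 5.83 to 12.2 CPM, and the membrane proteins Cd68 (1.39-fold, 631 to 878 CPM) and Cd63 (1.32-fold) were higher. Ctsc, cathepsin C, was 1.35-fold lower, from 3041, 3025 and 2880 CPM to 2390, 2222 and 2013 CPM (adjusted p = 9.64e-09).

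Of 22 surface molecules of T cell contact 10 (45.5%) fell, 4 rose (2 without replicate 1 of IFNγ + LPS) and 8 did not pass. Vcam1 was 2.34-fold lower (44.8 to 19 CPM), Cd83 1.8-fold lower (77.5 to 43.1 CPM) and Cd69 1.43-fold lower (284 to 199 CPM). The inhibitory receptor Cd200r1 went from 47.4, 56.7 and 52.1 CPM to 100, 88.7 and 99 CPM. It was 1.84-fold higher without overlap (adjusted p = 2.1e-13), and Cd38, an NAD hydrolase, was 1.53-fold higher.

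Secreted and matrix genes were divided evenly, with 9 of 26 (34.6%) higher and 8 (30.8%) lower, against 13.5% and 16.3% over all genes tested. The collagenase Mmp13 went from 107, 128 and 93.8 CPM to 40.3, 37.5 and 34.8 CPM. It was 2.91-fold lower without overlap (adjusted p = 1.54e-15). Thbs1, thrombospondin 1, was 2.33-fold lower (394 to 170 CPM) and Mmp14 1.55-fold lower. Tgfbi was 1.76-fold higher, from 156, 164 and 187 CPM to 300, 271 and 325 CPM (adjusted p = 0.000692).

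Of 20 macrophage identity genes 7 (35%) fell and 4 (20%) rose, against 16.3% and 13.5% over all genes tested. Cebpa, a myeloid factor, was 1.61-fold higher (30.7 to 49.3 CPM), whereas Maf was 1.56-fold lower (189 to 122 CPM) and the integrin Itgam 1.52-fold lower (130 to 85.4 CPM), with a gene model on the same strand, Gm49368, over 73.8% of the Itgam transcript. Of 10 tested markers of alternative activation 1 (10%) rose and 1 (10%) fell, against 13.5% and 16.3% over all genes tested. With edgeR on the 6 libraries 0 rose, and 2 rose without replicate 1 with DGAT1i or replicate 2 of M0. Without replicate 1 of IFNγ + LPS or replicate 2 with DGAT1i 2 fell. Tgm2, transglutaminase 2, was the one that fell, at 1.23-fold lower (2289 to 1865 CPM).

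DNA replication genes fell in part. Of 36, 10 (27.8%) fell and 1 (2.78%) rose, against 16.3% and 13.5% over all genes tested, with a median of -0.38 on the log2 scale. The number that rose was 0 without replicate 1 of IFNγ + LPS or replicate 2 with DGAT1i and 2 without replicate 2 of IFNγ + LPS or replicate 1 with DGAT1i. The helicase subunit Mcm5 went from 14.3, 16 and 12.2 CPM to 3.71, 3.55 and 5.84 CPM. It was 3.28-fold lower without overlap (adjusted p = 4.78e-06), and Mcm2 was 2.41-fold lower (6.78 to 2.85 CPM). With DESeq2 on the 6 libraries 5 rather than 10 fell. Ccnd2, cyclin D2 and no member of the list, had one of the 10 smallest p values, from 152, 137 and 134 CPM to 43, 53.8 and 45.3 CPM (2.98-fold lower, adjusted p = 2.63e-23). Ccne1, cyclin E1, was 1.71-fold lower (66.3 to 38.7 CPM).

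Of 36 mitosis genes 32 did not pass, 3 (8.33%) fell and 1 (2.78%) rose, against 16.3% and 13.5% over all genes tested. The spindle protein Tpx2 was 1.54-fold lower (88 to 57.1 CPM) and the kinase Plk4 1.41-fold lower (27.8 to 19.8 CPM), whereas Cenpa, the centromeric histone, was 1.59-fold higher (7.98 to 12.7 CPM). The last call had an adjusted p of 0.057 with DESeq2 on the 6 libraries. Of 30 genes of p53 and the BCL2 family 9 (30%) fell and 5 (16.7%) rose, against 16.3% and 13.5% over all genes tested. With DESeq2 on the 6 libraries 4 fell and 3 rose. Among the members called were the death effector Bak1 (1.41-fold lower, 268 to 190 CPM, partly shared with Ggnbp1 on the other strand) and Gadd45g (1.61-fold higher, 24 to 38.8 CPM). Outside the list, Bcl2l14 was 5.8-fold lower (23 to 3.97 CPM, adjusted p = 9.93e-15).

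The remaining genes of the 12 largest decreases by the rule above had a mean of at most 57.5 CPM in IFNγ + LPS. Tagap, a GTPase-activating protein of immune cells, went from 56.8, 61.7 and 53.8 CPM to 12.6, 11.9 and 13.8 CPM. It was 4.52-fold lower without overlap (adjusted p = 3.76e-21), and 69.9% of its transcript has a near-identical copy in Tagap1. The antimicrobial ribonuclease Rnase6 was 5.6-fold lower (13.8 to 2.43 CPM), Pilrb1 5.36-fold lower with a full copy in Pilrb2, Tenm4 4.38-fold lower (16.7 to 3.8 CPM) and Gpr31b 3.99-fold lower with a copy in Gpr31a. The transcript 4933430I17Rik was 5.36-fold lower.

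Resting macrophages given the same inhibitor served to ask which of these responses also occur without IFNγ and LPS. In M0, 2869 genes (24.4%) changed, 1298 (11%) higher and 1571 (13.4%) lower. Over 2-fold, 372 genes (3.16%) changed there, 51 (0.434%) higher and 321 (2.73%) lower. Those libraries share no sample with the comparison above. Of the 1589 genes that rose in IFNγ + LPS 434 (27.3%) also rose in M0, which is 33.4% of the genes that rose there, and 126 (7.93%) fell. Of the 1919 that fell 441 (23%) fell in M0, which is 28.1% of the genes that fell there, and 150 (7.82%) rose. Across 11436 genes above 1 CPM in M0 the log2 fold changes of both states had a Pearson r of 0.21 and a Spearman rho of 0.21, a description across genes, which are not independent replicates. The difference between the responses passed the threshold for 2171 genes (18.5%), 1019 (8.66%) with a higher and 1152 (9.8%) with a lower value in IFNγ + LPS. The balance of both directions depended on scaling. Scaled by library size alone, 885 genes were higher and 2092 lower in M0, and the difference was above 0 in 1229 and below 0 in 882 genes. With the size factors of DESeq2 in edgeR's test (RLE scaling) these counts were 1135, 1722, 1083 and 1045, and with DESeq2 on the 12 libraries 747, 1196, 733 and 745. By comparison, in IFNγ + LPS 1524 and 1566 genes were higher and 1979 and 1937 lower under the library size and RLE scalings. The difference also exceeded 1 on the log2 scale in 388 genes (3.3%), 273 (2.32%) higher and 115 (0.978%) lower. The responses differed in 656 (41.3%) of those that rose and 812 (42.3%) of those that fell in IFNγ + LPS. The libraries that chose these genes also enter that difference, so these shares can be raised by that choice alone and nothing is read from them against the 18.5% over all genes.

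Hmox1, Slc40a1, Gclm and Fabp4 rose in both states. Hmox1 went from 406, 391 and 446 CPM in M0 to 989, 1068 and 1084 CPM with DGAT1i (log2 1.34 ± 0.06 SE, edgeR adjusted p = 8.75e-26), and the rise in IFNγ + LPS was larger by 0.32 (adjusted p = 0.00204). Slc40a1 went from 112, 103 and 128 CPM to 287, 273 and 238 CPM (log2 1.22, adjusted p = 5.65e-18), 0.86 less than in IFNγ + LPS (adjusted p = 2.68e-08). Gclm rose more in M0, from 46.9, 44.6 and 48.3 CPM to 131, 133 and 128 CPM (log2 1.49, adjusted p = 8.98e-26). Its response differed by -0.56 on the log2 scale (adjusted p = 7.86e-07). Fabp4 rose by log2 1.04 in M0 and 1.41 in IFNγ + LPS, and this difference did not pass (adjusted p = 0.164).

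Of the interferon targets, Gbp2b, Gbp10 and Gbp11 had 0 reads in all 6 libraries without IFNγ and LPS, which allows up to 0.139 CPM in M0 and 0.135 CPM in M0 with DGAT1i, so that a decrease could not be seen there. Among genes that fell with DGAT1i in IFNγ + LPS, 42 had at most 3 reads over those 6 libraries, and 8 of those that rose did. Klf4 was low in M0 at 8.2 CPM and stood at 8.38 CPM with DGAT1i (log2 0.03, adjusted p = 0.915). Its difference of -1.40 between the states passed (adjusted p = 2.94e-08). Nr1h3 stood at 19.2 CPM in M0 and 24.5 CPM with DGAT1i (log2 0.36, adjusted p = 0.148), with a difference of -1.63 (adjusted p = 4.49e-05). Ikbke fell in both states, by 0.60 on the log2 scale in M0, and more so in IFNγ + LPS (difference -0.61, adjusted p = 1.02e-07).

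**Figure D5:**
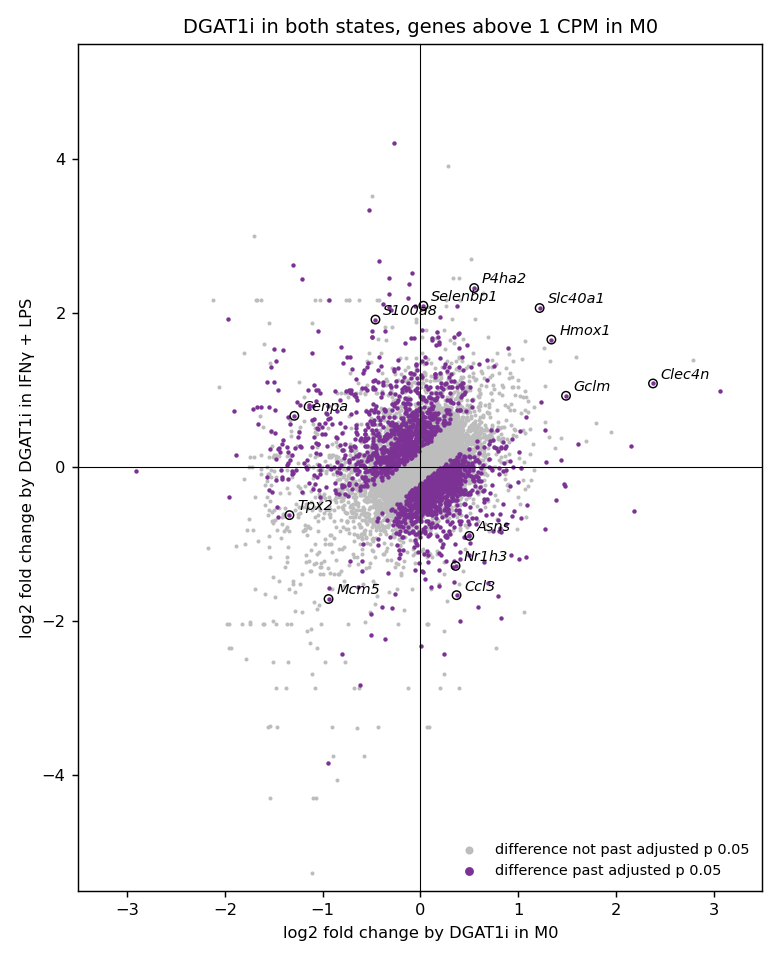
Log2 fold change by DGAT1i in IFNγ + LPS (vertical axis) against that in M0 (horizontal axis) for genes above 1 CPM in M0 with or without DGAT1i. Purple points are genes whose responses differ at an adjusted p under 0.05, grey points the rest, and points that line up in rows are genes with a handful of reads. Hmox1 (1.66 and 1.34) and Gclm (0.93 and 1.49) lie in the quadrant of increases in both states, and Ccl3 (-1.66 and 0.37) in that of opposite signs.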

How the data were processed

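RNA of 12 libraries was sequenced and the authors deposited a table of counts per gene, with GRCm38 in the submitters' processing notes. Reads went through the snakePipes pipeline per the study's methods, and the authors tested with DESeq2. For the aligner, counter, annotation and strand setting the sources used here give no name. The methods name a stranded kit (TruSeq) and the labels another (NEBNext Single Cell/Low Input), so it is unknown whether strand was counted. Here, the deposited counts of all 12 libraries, 1 mean per group, were fitted with edgeR 4.0.16 in R 4.3.3 (TMM, filterByExpr, robust quasi-likelihood test, two-sided), with p adjusted by Benjamini-Hochberg over 11760 genes. DGAT1i was tested within each state, and the difference of both responses as an interaction. The groups, members and gene lists were chosen with earlier results of these data known. Named genes are Dgat1, the 12 largest changes each way (mean of at least 10 CPM, values not overlapping), the 10 smallest p and, per list, up to 5 members past the threshold (at least 5 CPM) and 2 that did not pass; some are not reported here. On simulated counts, 92% of 2-fold and 74% of 1.5-fold changes were recovered. That simulation gave every gene the same spread and changed no genes of few reads, so the shares do not cover such genes. Libraries with the same number did not pair (r from -0.022 to 0.069). Copies were searched with BLAST 2.17.0 at 95% identity. DESeq2 1.42.0, other scalings, filters and single libraries left out were alternatives.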

Additional observations from a re-analysis of the deposited data

Results flagged for a closer look

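For 37 named genes the response to DGAT1i in IFNγ + LPS differed from that in M0 by more than 1 on the log2 scale, at an adjusted p under 0.05 by edgeR's test of the difference. Values in brackets are the log2 response in IFNγ + LPS minus that in M0. The difference was above 0 for 18 genes, Clmp (3.25), Ngp (3.10), Ltf (2.50), S100a8 (2.38), S100a9 (2.20), Selenbp1 (2.07), Cenpa (1.96), P4ha2 (1.79), Maged1 (1.75), Nlgn2 (1.73), Ephx1 (1.60), Ckap4 (1.54), Mgst3 (1.46), Abca8b (1.44), Fabp3 (1.21), Ndrg1 (1.21), Pycard (1.11) and Tgfbi (1.11). It was below 0 for 19 genes, Tenm4 (-3.24), 4933430I17Rik (-2.66), Ccl3 (-2.03), Mmp13 (-1.73), Tagap (-1.66), Nr1h3 (-1.63), Pilrb1 (-1.62), Mmp14 (-1.57), Thbs1 (-1.55), Gbp8 (-1.45), Slc7a5 (-1.42), Klf4 (-1.40), Asns (-1.39), Kdr (-1.38), Cd22 (-1.36), Vcam1 (-1.31), Ccl4 (-1.30), Clec4n (-1.29) and Slc7a1 (-1.08). Several of these genes rest on few reads in M0, and no cause was tested.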

How the results depend on the processing

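With DESeq2 on the 6 libraries alone 1983 genes changed with DGAT1i in IFNγ + LPS and 287 of them over 2-fold, of which the main result shared 1966 of the 1983, and with DESeq2 on all 12 libraries the counts were 2562 and 353. At an adjusted p under 0.01 the responses in both states differed for 1350 genes. With single libraries left out, 2916 to 3567 genes changed in IFNγ + LPS, 401 to 454 over 2-fold, 2270 to 3017 in M0, and 1881 to 2160 differed between the states. The log2 fold change of Dgat1, never past the threshold, was 0.01 with edgeR and 0.00 with DESeq2 on the 6 libraries and -0.10 to 0.07 with single libraries left out, and that of Hk3 was -0.01 without the filter on low counts. Same-numbered libraries share only a number, and with the replicate number as a block 3568 genes changed, 433 over 2-fold, 2959 in M0, and 2268 differed. Of 174 named genes past the threshold, 8 lost the call with DESeq2 on 6 libraries, 5 with DESeq2 on 12, 1 with edgeR on 6, 3 without the filter on low counts, 6 at an adjusted p under 0.01 and 7 without at least 1 library, and 0 changed direction under these settings. Genes of a few CPM rest on few reads, which limits the precision of their fold changes.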
